A study of Homo sapiens with 6 samples.

Results

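The nuclear genes of oxidative phosphorylation were followed in HCT116 cells, a human colorectal carcinoma line in wide use, after oxaliplatin. Members were taken by name: the symbols starting with NDUF, UQCR, ATP5 or COX4 to COX8, together with SDHA, SDHB, SDHC, SDHD, SCO1 and SCO2, without pseudogenes and antisense genes. This gave 101 of the 27942 genes in the count table, under 100 symbols, since SCO2 is listed under 2 identifiers. By the complex they belong to, 46 rows fall to complex I, 4 to complex II, 9 to complex III, 22 to complex IV and 20 to complex V, and 11 of the 101 are assembly factors or copper chaperones rather than subunits.

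Oxidative phosphorylation couples the oxidation of NADH and succinate to ATP synthesis in the inner mitochondrial membrane. Complexes I and II feed electrons into coenzyme Q, complex III passes them to cytochrome c, complex IV reduces oxygen, and complex V, the ATP synthase, uses the resulting proton gradient. Complex II is encoded by nuclear genes alone, whereas each of the other complexes also holds subunits encoded by mitochondrial DNA, so both genomes have to supply parts of the same machine. Proliferating colorectal carcinoma cells draw on glycolysis as well as on respiration.

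The NT group is 3 libraries of untreated cells and the OXA group is 3 libraries of cells given 0.5 µM oxaliplatin, a platinum compound that forms DNA adducts, for 24 h. Both groups are the same unmodified line grown in RPMI with bovine serum, and a single line and a single time limit what they stand for. Libraries were numbered 1 to 3 in each group by the labels, which do not say whether they came from separate cultures, so the p-values measure only the spread between these libraries. In bulk RNA, fewer cells of a kind and less RNA per cell cannot be told apart.

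Library totals lay between 32979521 and 40967880 counts. Of 10 colorectal epithelium markers, 8 had more than 10 counts in every library, but CDX1 was at 0 in all 6 and CDH17 did not exceed 3. The summed count of these 10 markers was 76067 to 108530 in NT and 116789 to 146880 in OXA, carried by keratins, and its part in the results was not tested. Leukocyte, fibroblast, endothelium and muscle markers summed to at most 240, 290, 32 and 27 counts. The NT library 1 stood apart by a deficit of GC-rich transcripts, whose values for the members are given with the GC content below the complexes.

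The start regions of the members were searched for 4 sets of letters, each the core of a motif of a factor known to act at genes of the respiratory chain or at many housekeeping promoters: GCATGCGC (NRF1), CCGGAAG (ETS factors such as GABPA), AAGATGGCG (YY1) and TGACGTCA (the cAMP response element). RefSeq windows on GRCh38.p14, from 250 bases before to 50 bases after a start, were found for 80 of the 100 symbols, and the window nearest to the start of the GENCODE canonical transcript was used for each. On either strand, GCATGCGC was in 15 of 80 member windows (18.8%, against 3.35% of 27305 genes with a window and 5.67% of the 10699 tested genes with a window). CCGGAAG was in 24 (30%, against 10.9% and 19.7%), AAGATGGCG in 10 (12.5%, against 1.95% and 4.17%) and TGACGTCA in 5 (6.25%, against 2.05% and 3.31%). GCATGCGC overlaps its own reverse complement by all but 2 bases where it lies within a palindrome, and such a window was counted once. In all, 41 of the 80 held at least 1 of the 4. These are matches of letters and not mapped binding sites.

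The AAGATGGCG windows are shown because both complex I genes called with oxaliplatin, NDUFB8 and NDUFAF8, hold these letters, beside the 8 other members that do. They were thus picked with the calls known, and a link between letters and change was not tested. NDUFA6, NDUFA7, NDUFA9, NDUFS7, UQCRC1 and ATP5PF hold the letters too and were called neither without nor with the replicate block. Once GC and length trends were removed beside the block, NDUFA9 was called higher (edgeR adjusted p = 0.00219). NDUFA6, NDUFA7, NDUFS7, UQCRC1 and ATP5PF were not called there either. The more frequent GCATGCGC and CCGGAAG windows are not shown. In all 10 the AAGATGGCG letters read in the direction of the gene, and in 8 of the 10 the ATG within them is an annotated start codon. In those 8 the letters from the ATG on are also the beginning of an annotated coding sequence. The exceptions are NDUFAF8 and ATP5PF. For NDUFA6, NDUFA9 and SDHB, 1 of 3 start codon annotations lies at this ATG, and for NDUFB8 3 of 4. Each window runs 5′ to 3′ on the gene's strand with the 9 letters in capitals.
NDUFB8, chr10:100529836-100529864, minus strand: gaagaaggtgAAGATGGCGgtggccaggg
NDUFAF8, chr17:81239317-81239345, plus strand: ggacggacctAAGATGGCGgcctccaggg
NDUFS4, chr5:53560650-53560678, plus strand: tgcctgcagcAAGATGGCGgcggtgtcaa
NDUFS7, chr19:1383914-1383942, plus strand: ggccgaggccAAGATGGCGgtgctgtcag
NDUFA6, chr22:42090729-42090757, minus strand: atgctttggcAAGATGGCGgggagcggcg
NDUFA7, chr19:8321343-8321371, minus strand: tcgcggacggAAGATGGCGtccgccaccc
NDUFA9, chr12:4649114-4649142, plus strand: attgtgggaaAAGATGGCGgctgccgcac
SDHB, chr1:17054004-17054032, minus strand: gtcaggagccAAGATGGCGgcggtggtcg
UQCRC1, chr3:48609605-48609633, minus strand: ctgcagctggAAGATGGCGgcgtccgtgg
ATP5PF, chr21:25735093-25735121, minus strand: aggcgaagaaAAGATGGCGgaggctgtgc

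The cAMP response element letters are shown for the 5 members that hold them, since SDHB, NDUFB2 and ATP5MC1 are among the genes that passed the test with the replicate block described further on. ATP5ME and NDUFA10 did not pass it. With GC and length trends also removed, NDUFB2 and ATP5MC1 were no longer called. In that same fit NDUFA10 was called higher (edgeR adjusted p = 0.0195), SDHB stayed called and ATP5ME again was not. These windows too were picked with the calls known, and a link to the change was not tested. The 8 letters, which are their own reverse complement, are in capitals.
SDHB, chr1:17054019-17054046, minus strand: ggggtggggcTGACGTCAggagccaaga
NDUFB2, chr7:140696645-140696672, plus strand: agcgactctgTGACGTCAcgggaggcgc
ATP5MC1, chr17:48892720-48892747, plus strand: ggggaatcgaTGACGTCAaccaatgggg
ATP5ME, chr4:674417-674444, minus strand: gcgcctcacgTGACGTCAccgccgcgcg
NDUFA10, chr2:240025373-240025400, minus strand: accccggccgTGACGTCAcggcagcgcg

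Across the whole set, the shift with oxaliplatin was small and upward for most members. The 101 members took 1.007% ± 0.0262 of all counts in NT and 1.088% ± 0.0230 in OXA (mean ± SD, n = 3), and the lowest OXA library, at 1.067%, lay above the highest NT library, at 1.034%. The filter on low counts left 94 members, and the 7 below it were COX4I2, COX6A2, COX7A1, COX7B2, COX8C, NDUFA4L2 and ATP5MGL. Of the 94, 89 had a log2 fold change of OXA over NT, written log2FC below, above 0, against 53.3% of the 13727 genes tested. Their median log2FC was 0.17, against 0.02 over all genes tested. With the replicate number in the model and the trends on GC content and length removed, both described below, 71 of the 94 were above 0 and 23 below, against 50.4% of all genes above 0.

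Few members passed the test on their own. With edgeR's quasi-likelihood test and an adjusted p under 0.05 over all 13727 genes, 3 of 94 members (3.19%) were higher in OXA and 0 were lower, a share close to the 2.78% of all genes called higher, while 2.29% of all genes were called lower. The 3 were NDUFAF8, NDUFB8 and SCO2 (ENSG00000284194), and 2 of them, NDUFAF8 and SCO2, also exceeded a fold of 1.5. This SCO2 row, at 0 to 4 counts in NT and 14 to 24 in OXA, passed the filter on low counts only through the OXA libraries, so its call is no support for the set. Without it, 2 of 93 members (2.15%) were called higher, and NDUFAF8 alone exceeded a fold of 1.5. Of these 93, 88 had a log2FC above 0, and 70 with the replicate number in the model and the trends removed. At an unadjusted edgeR p under 0.05, 14 members (13 without the SCO2 row) were higher and 0 lower, against 1463 and 1517 of all 13727 genes. These totals over all genes stand beside every unadjusted count below. DESeq2, which gave this SCO2 row no adjusted p, called 4 higher and 0 lower. The share of all genes called by DESeq2 was not counted, so this count is not set against all genes. In 22 of the 94 (21 without the SCO2 row) all OXA libraries were above all NT libraries, against 14.5% of all genes tested. In 0 every OXA library lay below, against 14.4%.

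Libraries of the same number deviated together, so each NT library was also set against the OXA library of its number, by adding the replicate number to the model as a block. In that fit 25 members (26.6%) were higher and 0 lower, against 12.1% and 10.9% of all genes, and 24 without the SCO2 row named above. OXA lay above NT in all 3 same-numbered pairs for 64 members (63 without the SCO2 row) and below it for 4, against 33.8% and 27.6% of all genes. Each library's trends on GC content and length were also removed, always together, in what is called the trend-removed fit below. There 36 members (35 without the SCO2 row) were higher and 3 lower, against 23.4% and 22.1%. Of the 25 called with the block, 20 were among the 36. The 5 that were not are NDUFB2, NDUFS5, NDUFS6, COX6A1 and ATP5MC1. With the trends removed and no block, 8 (7 without the SCO2 row) were higher and 0 lower, against 11.3% and 10.9%. The median log2FC of the members was then 0.09. The median was smaller with these trends removed and was above 0 in each of these fits.

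**Figure D1:**
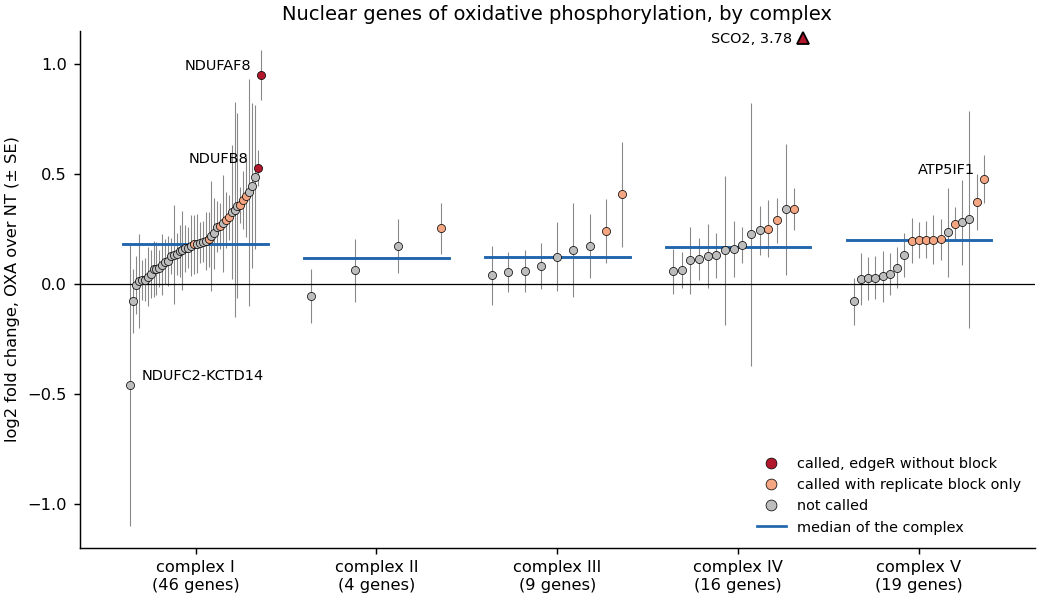
Log2 fold change of OXA over NT from edgeR without a block, with its SE, for each of the 94 tested members by complex, ordered by size within a complex. Red points passed the adjusted p threshold without a block, light orange points only with the replicate block, grey points in neither, and the blue line is the median of the complex. Nearly all points lie above 0, and SCO2 (ENSG00000284194) lies beyond the axis at 3.78.

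NDUFAF8 (ENSG00000224877) had the largest rise among members of at least 50 normalized counts. It encodes an assembly factor of complex I that partners the methyltransferase-like factor NDUFAF5, and lies at chr17:81239305-81241310 on the plus strand of GRCh38. TMM-normalized counts, used for all values below unless another scale is named, were 687, 732 and 853 in NT libraries 1 to 3 and 1435, 1454 and 1506 in OXA libraries 1 to 3. The groups did not overlap, and the 3 OXA libraries stood closer together than the 3 NT libraries. The log2FC was 0.95 (standard error, SE, 0.11, edgeR adjusted p = 0.00617), and the edgeR adjusted p stayed between 0.00194 and 0.0469 when any 1 library was left out. The trend-removed value was 0.63.

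NDUFB8 (ENSG00000166136) is an accessory subunit of the membrane arm of complex I, and its protein is widely used as a sign of assembled complex I. It lies at chr10:100523740-100530000 on the minus strand. Its normalized counts were 2952, 3061 and 2782 in NT and 4285, 4305 and 4091 in OXA. All OXA libraries lay well above all NT libraries, with the same-numbered libraries 3 the lowest of both groups. The log2FC was 0.53 (SE 0.081, edgeR adjusted p = 0.0148) without a block and 0.53 with it (edgeR adjusted p = 0.00323). The log2FC fell to 0.32 in the trend-removed fit (edgeR adjusted p = 0.000984), and with the trends removed and no block the call was lost, at 0.31 (edgeR adjusted p = 0.0506). Without NT library 3 or any OXA library the edgeR adjusted p also missed the threshold, at up to 0.0992. A read-through gene on the same strand covers 6142 bases of NDUFB8 and had a mean of 20.4 normalized counts in NT, so it could take few of these reads. HIF1AN overlaps 929 bases on the other strand and had a log2FC of -0.03.

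Of the 46 complex I rows, all tested, 2 (4.35%) were called higher and 0 lower, against 2.78% and 2.29% of all genes. With the block 10 (21.7%) were called higher, against the 12.1% of all genes given above. In the trend-removed fit 15 (32.6%) were higher and 2 lower, against 23.4% and 22.1%. The 7 core subunits, which carry the flavin and most of the iron-sulfur clusters, had a median log2FC of 0.07 and 0 calls with or without the block. Their median turned to -0.04 in the trend-removed fit, and 2 of the 7 (28.6%) were called higher. The 30 accessory subunits, which surround the core, had a median of 0.20, with 1 called higher without the block and 9 (30%) with it. Their trend-removed median was 0.11, with 10 (33.3%) higher and 1 lower. In 25 of the 30 accessory genes (83.3%), OXA lay above NT in every same-numbered pair. It did so in 3 of the 7 core genes (42.9%), against 33.8% of all genes. The difference between core and accessory genes was not tested. The 8 assembly factors of the NDUFAF series had a median of 0.12, and NDUFAF8 was the one called with or without the block, while 3 of the 8 were called higher in the trend-removed fit.

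Among the accessory subunits, NDUFB9, a membrane arm subunit of the LYR family, had 6728, 6900 and 7010 normalized counts in NT and 8985, 8237 and 9216 in OXA. The groups did not overlap, and the call was missed narrowly without a block (log2FC 0.36, SE 0.082, edgeR adjusted p = 0.0519, 0.0105 with the block). It was called at 0.17 in the trend-removed fit (edgeR adjusted p = 0.00930). NDUFV3, a small subunit next to the NADH-oxidising flavoprotein, had 1411, 1462 and 1289 in NT and 1728, 1827 and 1579 in OXA. Here too every OXA library exceeded every NT library (log2FC 0.30, edgeR adjusted p = 0.135, 0.0188 with the block). NDUFB2 had 972, 1007 and 1229 in NT and 1285, 1327 and 1570 in OXA, with the libraries numbered 3 the highest of both groups. Its log2FC was 0.38 (edgeR adjusted p = 0.146, 0.0122 with the block), and in the trend-removed fit it was 0.14 and no longer called (edgeR adjusted p = 0.0598).

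NDUFS6, a zinc-binding subunit, showed how the pairs differ from the groups. Its normalized counts were 858, 1323 and 996 in NT and 1251, 1655 and 1282 in OXA. The groups overlapped, with NT library 2 above both OXA libraries 1 and 3, yet each OXA library exceeded the NT library of its number (log2FC 0.40, edgeR adjusted p = 0.263, 0.0161 with the block). The trend-removed log2FC was 0.11 and the call was lost (edgeR adjusted p = 0.151). NDUFS5, the most abundant complex I transcript per length, had 7032, 6101 and 5398 in NT and 7899, 6996 and 6091 in OXA. Its groups overlapped as well, with the order of the numbers the same in both (log2FC 0.18, edgeR adjusted p = 0.493, 0.0412 with the block). NDUFS5 had 0.03 and no call in the trend-removed fit (edgeR adjusted p = 0.488).

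NDUFA13 and NDUFS8, with transcripts of 61.6% and 63.5% GC, had larger errors than NDUFAF8, at 61.4% GC. NDUFA13, an accessory subunit also known as GRIM19, had 949, 2582 and 2077 normalized counts in NT and 2198, 3147 and 2506 in OXA. NDUFS8, a core subunit with iron-sulfur clusters, had 337, 994 and 884 in NT and 736, 1250 and 1036 in OXA. In both genes NT library 1 was far below all other libraries, and OXA library 1 was the lowest of its group. The log2FC values of 0.49 and 0.45 were among the 5 largest of the members with at least 50 normalized counts, but with SEs of 0.33 and 0.38 neither was called (edgeR adjusted p = 0.448 and 0.551, and 0.0778 for each with the block). Both were called in the trend-removed fit, at log2FC values of 0.23 and 0.22 (edgeR adjusted p = 0.0382 and 0.0203).

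**Figure D2:**
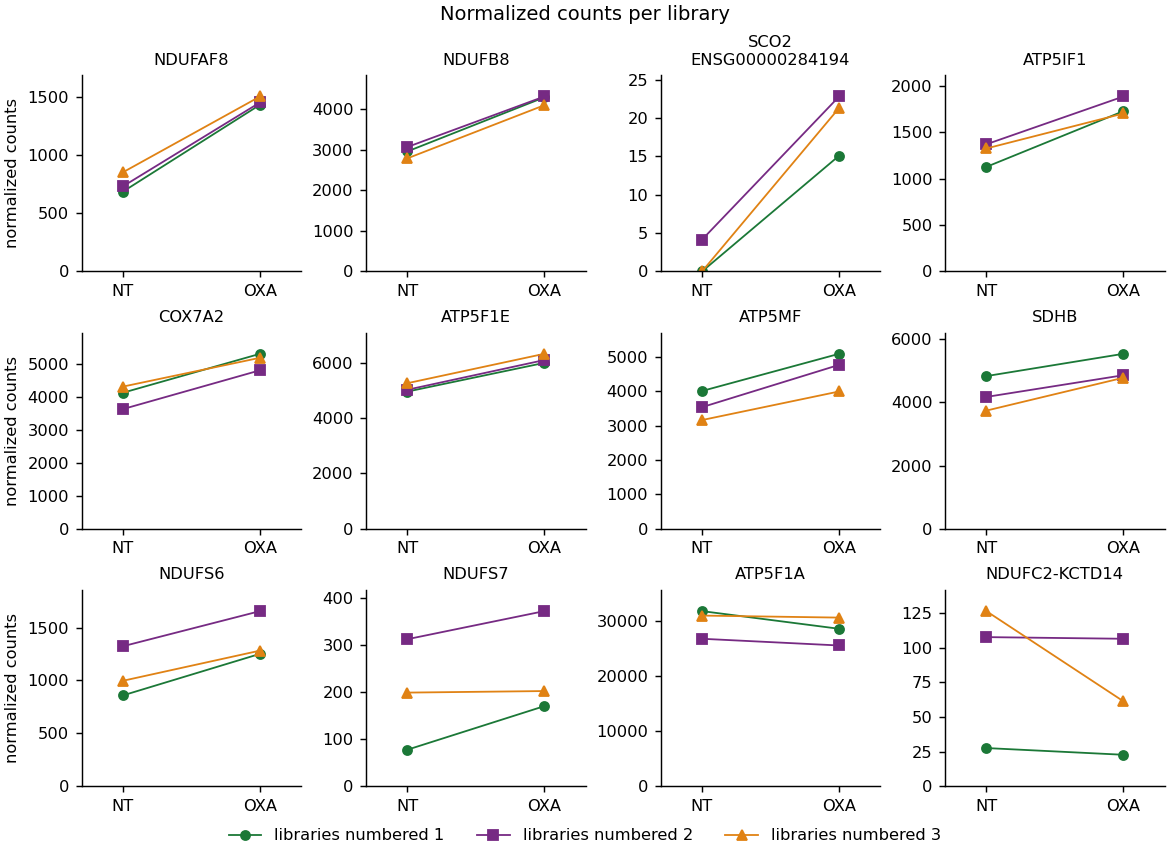
TMM-normalized counts of 12 members in each NT and OXA library, with a line joining libraries of the same number and each vertical axis starting at 0. The groups do not overlap for NDUFAF8, NDUFB8, SCO2 (ENSG00000284194), ATP5IF1, COX7A2 and ATP5F1E, whereas NDUFS7 differs more between libraries of 1 group than between the groups.

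Complex II, succinate dehydrogenase, joins the citric acid cycle to the respiratory chain. Its 4 genes were split in direction. SDHB, the iron-sulfur subunit, had 4833, 4174 and 3741 normalized counts in NT and 5540, 4862 and 4782 in OXA. Both groups descended in the same order of numbers and overlapped, so the log2FC of 0.25 was called with the block (edgeR adjusted p = 0.0252) and not without it (0.264). SDHA, the flavoprotein, had a log2FC of 0.17 (edgeR adjusted p = 0.483, 0.105 with the block), and was called at 0.12 in the trend-removed fit (edgeR adjusted p = 0.0267). The membrane anchors SDHC and SDHD had 0.06 and -0.05 (edgeR adjusted p = 0.852 and 0.845), with OXA below NT in all 3 pairs for SDHD. Leaving out a library changed the sign of SDHC and of SDHD.

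Complex III, the cytochrome bc1 complex, had 9 rows, all tested. All 9 log2FC values were above 0, with a median of 0.12, and 0 were called by edgeR without the block, also at an unadjusted p under 0.05. With the block, UQCR10 and UQCRQ, both small accessory subunits, were called (22.2%, against 12.1% of all genes). In the trend-removed fit 5 of the 9 (55.6%) were higher and 0 lower, against 23.4% and 22.1%. UQCRQ had 2101, 2477 and 2789 normalized counts in NT and 2527, 2773 and 3395 in OXA (log2FC 0.24, edgeR adjusted p = 0.397, 0.0301 with the block). UQCR10 had 1082, 2015 and 1861 in NT and 1813, 2604 and 2161 in OXA, with NT library 1 lowest by far (log2FC 0.41, edgeR adjusted p = 0.375, 0.0355 with the block). In both genes the groups overlapped and each pair went upward. UQCRH, the hinge protein and most abundant of the complex per length, had a log2FC of 0.06 (edgeR adjusted p = 0.785), which turned to -0.06 without a call in the trend-removed fit.

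Complex IV, cytochrome c oxidase, had 22 rows, of which 16 passed the filter. All 16, the SCO2 row (ENSG00000284194) among them, had a log2FC above 0, with a median of 0.17. Besides this row, called also without a block, COX6A1, COX7A2 and NDUFA4 were called with the block. With the SCO2 row these are 4 of the 16 (25%), against 12.1% of all genes. In the trend-removed fit 6 of the 16 (37.5%), again with the SCO2 row, were higher and 0 lower, against 23.4% and 22.1%. COX6A1 had a log2FC of 0.29 (edgeR adjusted p = 0.149, 0.0425 with the block), which fell to 0.08 in the trend-removed fit, where the call was lost (edgeR adjusted p = 0.117). COX7A2 had 4136, 3639 and 4323 normalized counts in NT and 5321, 4819 and 5200 in OXA. The lowest OXA library exceeded the highest NT library (log2FC 0.34, SE 0.096, edgeR adjusted p = 0.0863, 0.0106 with the block, and 0.21 in the trend-removed fit, where it was called). NDUFA4, named for complex I but now counted as a subunit of complex IV, had 2431, 2193 and 2882 in NT and 2990, 2650 and 3296 in OXA. Its groups overlapped and each pair went upward (log2FC 0.25, edgeR adjusted p = 0.316, 0.0233 with the block).

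The isoforms of complex IV that belong to muscle, testis or lung were nearly absent. COX6A2, COX7A1 and COX7B2 had 0 counts in all 6 libraries, which for the smallest library allows up to 3 of 32979521 counts, while COX4I2 and COX8C reached 1 count in a library. NDUFA4L2, the paralog of NDUFA4 known to be induced in hypoxia, had 3, 9 and 3 counts in NT and 3, 7 and 3 in OXA. The testis isoform COX6B2 was low, with 23 to 53 counts. The widely expressed partners carried the signal, with 11788 to 18080 counts for COX4I1, 5041 to 7313 for COX6A1, 5039 to 6466 for COX6B1 and 1520 to 4755 for COX8A. COX4I1 and COX6B1 had log2FC values of 0.24 and 0.18, with no overlap between the groups and no call in either fit (edgeR adjusted p = 0.254 and 0.256, 0.0795 and 0.0732 with the block). Their trend-removed values were 0.08 and -0.05, again without a call. COX7A2L, which takes part in joining complexes into supercomplexes, had 0.06 (edgeR adjusted p = 0.710, 0.375 with the block) and was called higher at 0.12 in the trend-removed fit (edgeR adjusted p = 0.0417).

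SCO1 and SCO2 are chaperones that deliver copper to the oxidase, and SCO2 is known as a target of p53. The table lists SCO2 under 2 identifiers. ENSG00000284194, at chr22:50523568-50526461 on the minus strand, had raw counts of 0, 4 and 0 in the NT libraries and of 14, 21 and 24 in the OXA libraries. The groups did not overlap, and the ratio of the normalized sums was 15.1 with an interval for counting error of 5.60 to 57.3. The fitted log2FC was 3.78 (SE 0.81, edgeR adjusted p = 0.0426). The row passed the filter only through the OXA libraries, did not pass a filter of 50 counts in 3 libraries and got no adjusted p from DESeq2, so both the call and its size are uncertain. Without NT library 3 or any OXA library the edgeR adjusted p missed the threshold, at up to 0.152. The other identifier, ENSG00000130489, not in the annotation used here, had 24, 68 and 125 counts in NT and 29, 109 and 107 in OXA, and its groups overlapped (log2FC 0.23, edgeR adjusted p = 0.870). When both were summed, the log2FC was 0.51 and no call remained (SE 0.56, edgeR adjusted p = 0.657, 0.137 with the block). ENSG00000284194 shares 710 bases with TYMP on its strand and 1213 with NCAPH2 on the other, and how reads were divided among them is not given in the sources used here. SCO1 had a log2FC of 0.11 (edgeR adjusted p = 0.546, 0.173 with the block) and was called at 0.17 in the trend-removed fit (edgeR adjusted p = 0.00622).

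Complex V, the ATP synthase, had 20 rows, 19 of them tested and 0 called by edgeR without the block (5 higher and 0 lower at an unadjusted p under 0.05). With the block 8 of the 19 (42.1%) were called higher and 0 lower, against 12.1% of all genes. In the trend-removed fit 8 (42.1%) were higher and 1 (5.26%) lower, against 23.4% and 22.1%, and the median went from 0.20 to 0.06. ATP5IF1 is the inhibitor that binds the F1 head and halts ATP hydrolysis when the proton gradient fails. It lies at chr1:28236109-28246906 on the plus strand, and had 1127, 1371 and 1326 normalized counts in NT and 1728, 1886 and 1703 in OXA. The groups were well apart, and the log2FC of 0.48 missed the threshold narrowly (SE 0.11, edgeR adjusted p = 0.0514, 0.0103 with the block). It was called at 0.29 in the trend-removed fit. Without NT library 1 it was called (edgeR adjusted p = 0.0392). That fit called 6 members higher (5 without the SCO2 row), against 4.49% of all genes tested there.

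In the F1 head, ATP5F1B, the catalytic beta subunit, and ATP5F1A, its alpha partner, went different ways. ATP5F1B had 44535, 37550 and 41544 normalized counts in NT and 49515, 43172 and 48937 in OXA. ATP5F1A had 31821, 26792 and 31007 in NT and 28608, 25570 and 30640 in OXA. For the beta subunit each pair went upward (log2FC 0.20, edgeR adjusted p = 0.319, 0.0342 with the block), and for the alpha subunit each pair went downward without a call (-0.08, edgeR adjusted p = 0.726, 0.290 with the block). The groups overlapped in both genes, and the difference between the 2 changes was not tested.

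ATP5F1E, the epsilon subunit of the central stalk, changed by nearly the same ratio in each pair (log2 ratios of 0.27, 0.28 and 0.27). It had 4954, 5020 and 5256 normalized counts in NT and 5992, 6093 and 6319 in OXA. Every OXA library exceeded every NT library (log2FC 0.27, SE 0.077, edgeR adjusted p = 0.0887, 0.0139 with the block). ATP5MF, the f subunit of the membrane part, had 4005, 3535 and 3160 in NT and 5087, 4765 and 3992 in OXA. Its groups overlapped by OXA library 3 against NT library 1, and its pairs all went upward (log2FC 0.37, edgeR adjusted p = 0.141, 0.00786 with the block, and 0.16 in the trend-removed fit, where it was called). Other genes of complex V called with the block were ATP5MC1, ATP5MD, ATP5MG and ATP5PB.

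The c subunit, from which the rotating ring is built, comes from 3 genes that encode the same mature protein. ATP5MC3 gave the largest share of their counts, with 47.0% ± 0.175 in NT and 46.4% ± 0.574 in OXA (mean ± SD, n = 3). ATP5MC1 gave 22.9% ± 1.26 in NT and 24.7% ± 1.20 in OXA, and ATP5MC2 gave 30.1% ± 1.19 and 28.9% ± 0.652. The ranges of NT and OXA overlapped for all 3 genes. Between libraries of the same number, the share of ATP5MC1 was higher in OXA in all 3 pairs (24.3% to 25.4%, 22.0% to 25.4% and 22.3% to 23.3%). The share of ATP5MC2 was lower in all 3 (28.8% to 28.4%, 31.1% to 28.6% and 30.5% to 29.6%), as was that of ATP5MC3 (46.9% to 46.2%, 46.9% to 46.0% and 47.2% to 47.1%). The shares within a library sum to the whole, so they do not move independently, and they were not tested. ATP5MC1 was called with the block (log2FC 0.20, edgeR adjusted p = 0.217, 0.0429 with the block), while ATP5MC2 had 0.03 and ATP5MC3 0.07 (neither called without the block). In the trend-removed fit, where GC content and length cannot be told apart, ATP5MC1 changed its sign to -0.03 without a call, ATP5MC2 was called lower at -0.20 and ATP5MC3 was called higher at 0.14.

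**Figure D3:**
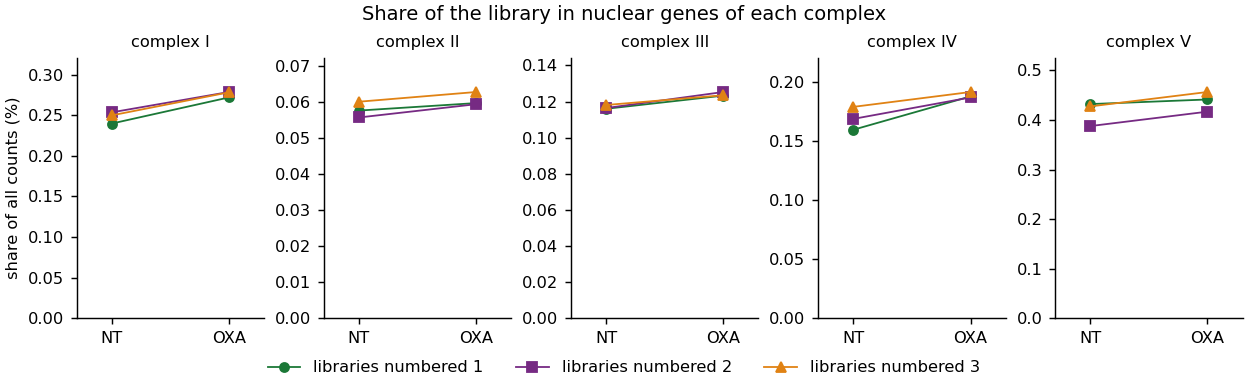
Share of all counts of a library, in percent, that fell on the nuclear genes of each complex, with a line joining NT and OXA libraries of the same number and each vertical axis starting at 0. The line goes upward in all 3 pairs for each of the 5 complexes, from a mean of 0.248% to 0.276% for complex I, 0.0578% to 0.0607% for complex II, 0.117% to 0.124% for complex III, 0.169% to 0.189% for complex IV and 0.416% to 0.438% for complex V.

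In the plot of shares by complex, the OXA libraries lay above all NT libraries for complexes I, III and IV and overlapped with them for complexes II and V. Per gene, the median log2 ratio of OXA over NT of the members was 0.19, 0.16 and 0.14 in pairs 1, 2 and 3, while that of all tested genes was 0.07 in pair 1, 0.00 in pair 2 and 0.01 in pair 3. The members' shift was thus not carried by a single pair.

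Levels between genes were compared in NT as TMM-normalized CPM, scaled to library size, per kb of the canonical transcript. ATP5F1B was the highest of all members, at 653 ± 55.5, followed by COX4I1 at 515 ± 67.0, UQCRH at 391 ± 32.2 and NDUFS5 at 348 ± 46.2 (mean ± SD, n = 3). The distances between COX4I1, UQCRH and NDUFS5 are of the size of their spread or little above it. For the lowest positions, isoforms of other tissues, assembly factors, copper chaperones, read-throughs, UQCRHL, COX7A2L, ATP5IF1 and rows below the filter were left out. COX6B2, such an isoform of complex IV, had 0.724 ± 0.284. The lowest of the remaining subunits of complexes IV and V were NDUFA4 at 34.3 ± 4.79 and ATP5F1D at 22.1 ± 12.8. These 6 positions within their complexes were the same with the median length of the basic transcripts. For complexes I and III the lowest gene differed between the lengths used, whereas in complex II SDHA was the lowest by both and the highest changed from SDHB to SDHC. The subunits of complex II lay closest together, with the highest 1.94 times the lowest by canonical length and 4.36 times by the other.

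GC content moved with both the libraries and the fold changes of the members. NT library 1 over the mean of NT libraries 2 and 3 fell with GC content among the 93 members whose transcript is annotated (Spearman's rho -0.68, and -0.77 over 13675 tested genes), as did OXA library 1 over the other OXA libraries (-0.52). These correlations are across genes of the same libraries and describe them. NDUFS7, a core subunit at 66.9% GC, had 77.5, 313 and 199 normalized counts in NT and 170, 373 and 203 in OXA. NDUFB7, at 64.9%, had 133, 627 and 429 in NT and 355, 789 and 445 in OXA. ATP5F1D, the delta subunit of the central stalk, at 69.6%, had 314, 1224 and 826 in NT and 628, 1514 and 759 in OXA. In these 3 genes the libraries numbered 1 were the lowest of each group, the groups overlapped, and the log2FC values of 0.34, 0.42 and 0.29 had SEs of 0.49, 0.52 and 0.49.

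The 47 members of lower GC content, up to 47.0%, had a median log2FC of 0.11 and the 46 of higher GC content one of 0.24. The trend-removed medians were 0.10 and 0.08, against 0.00 over all genes, so that an upward median remained on both sides. The members' transcripts had a median GC content of 47.0% and a median length of 857 bases. Over all tested genes these were 48.8% and 3261 bases. The 2 trends were removed together, so the part of each in the smaller medians was not tested. The 3 genes then called lower were ATP5MC2, NDUFB10 and NDUFC2-KCTD14, at log2FC values of -0.20, -0.18 and -0.69.

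**Figure D4:**
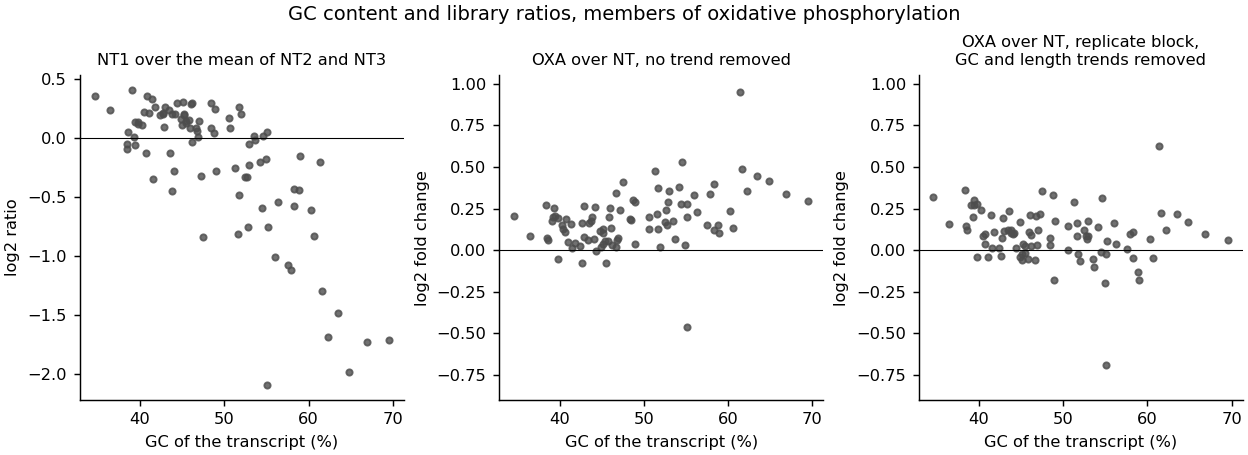
Each point is a tested member, without SCO2, by the GC content of its canonical transcript in percent. The vertical axes are the log2 ratio of NT library 1 over the mean of NT libraries 2 and 3 (left), the log2FC of OXA over NT with no trend removed (middle), and that with the replicate block and the GC and length trends removed (right); the ratio on the left falls below -1 at high GC content, the middle points climb with GC content, and the right points do not.

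The 13 subunits encoded by mitochondrial DNA were split in direction, with 9 log2FC values above 0 and 4 below. Together they took 2.74% ± 0.458 of all counts in NT and 2.67% ± 0.477 in OXA (mean ± SD, n = 3), with the libraries numbered 3 the lowest of both groups. With edgeR without the block 0 of the 13 were called in either direction, 0 also at an unadjusted p under 0.05, and the median log2FC was 0.10. With the block, MT-ND1, a core subunit of the membrane arm of complex I, was the one called, or 7.69% of the 13 against 12.1% of all genes. It had 45588, 43582 and 31308 normalized counts in NT and 50204, 55037 and 37636 in OXA (log2FC 0.25, edgeR adjusted p = 0.498, 0.030 with the block). All 7 MT-ND genes had values above 0 without the block, from 0.08 for MT-ND4 to 0.25 for MT-ND1. MT-ND4L turned to -0.06 in the trend-removed fit, without a call.

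The mitochondrial genes of complex IV had values below 0, without a call in the fits without or with the block. MT-CO1, the catalytic subunit, had 251701, 229878 and 202467 normalized counts in NT and 216925, 231029 and 177372 in OXA (log2FC -0.13, edgeR adjusted p = 0.625, 0.174 with the block). MT-CO2 and MT-CO3 had -0.06 and -0.05. MT-CO1, MT-CO2 and MT-CO3 were called lower in the trend-removed fit, at -0.14, -0.15 and -0.135, and MT-ND1, MT-ND2 and MT-ND5 higher at 0.18, 0.15 and 0.15. These are 3 of the 13 (23.1%) in each direction, near the 23.4% of all genes called higher and the 22.1% called lower in that fit. MT-CYB of complex III had -0.04, MT-ATP6 0.01 and MT-ATP8 0.10, none of them called in any of these fits. Whether the mitochondrial and nuclear genes of a complex differ in their change was not tested.

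**Figure D5:**
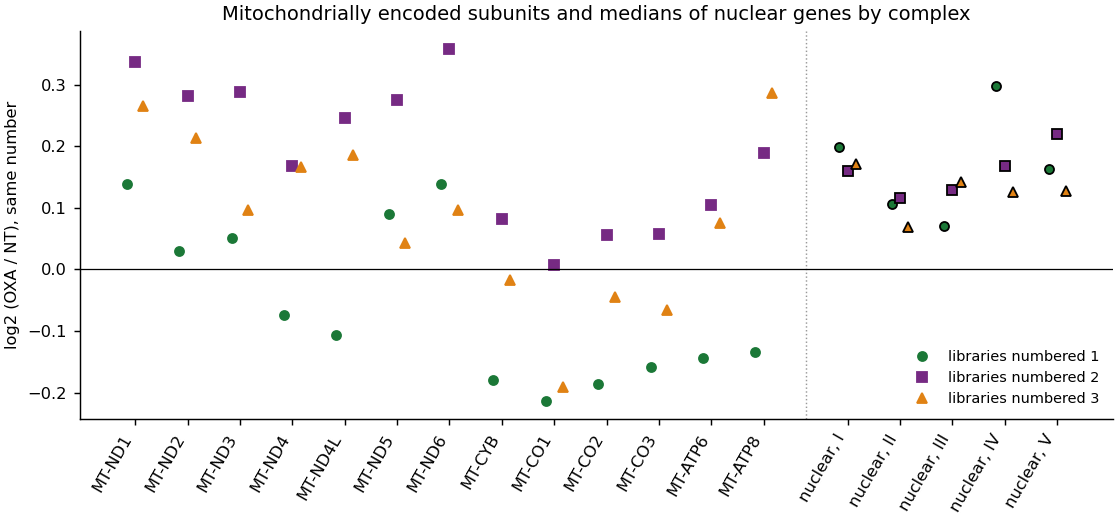
Log2 ratio of OXA over NT between libraries of the same number for each of the 13 mitochondrially encoded subunits (left of the dotted line) and the median of that ratio over the tested nuclear genes of each complex (right). The nuclear medians are above 0 in all pairs, while in the libraries numbered 1 the mitochondrial values lie below 0 for most genes.

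Other genes of the pathway were counted by lists. Of 47 assembly factors outside the name rule, 2 (4.26%) were called higher and 0 lower, against 2.78% and 2.29% of all genes (median 0.12). They were UQCC1, a complex III assembly factor, at a log2FC of 0.51 (edgeR adjusted p = 0.0312), and COA4, a complex IV assembly factor, at 0.53 (edgeR adjusted p = 0.0323). With the block 8 (17.0%) were higher and 2 (4.26%) lower, against 12.1% and 10.9% of all genes, the latter COX18 and ATPAF1 at -0.43 and -0.22. In the trend-removed fit 19 (40.4%) were higher and 5 (10.6%) lower, against 23.4% and 22.1%, and the median was 0.06. Of 17 electron carriers and genes of coenzyme Q synthesis, 0 were called by edgeR without the block (4 higher and 0 lower at an unadjusted p under 0.05). COQ4, COQ6 and COQ8A, of coenzyme Q synthesis, were called higher with it, at 0.55, 0.45 and 0.67. This makes 17.6% of the list, against 12.1% of all genes. With the trends removed as well, 9 (52.9%) were higher and 1 (5.88%) lower, against 23.4% and 22.1%, and COQ4 was called at 0.31.

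The mitochondrial ribosomal proteins, which translate the 13 mitochondrial messages, had a distribution close to that of the nuclear subunits. Of 78 tested, 70 were above 0, with a median of 0.17. With edgeR without the block 0 were called in either direction, with 14 higher and 0 lower at an unadjusted edgeR p under 0.05, and with the block 18 (23.1%) were higher and 0 lower, against 12.1% and 10.9%. The trend-removed counts were 30 (38.5%) higher and 3 (3.85%) lower, against 23.4% and 22.1%, with a median of 0.10. MRPS23 had 5328, 5035 and 5322 normalized counts in NT and 6709, 6324 and 7141 in OXA, with no overlap (log2FC 0.36, edgeR adjusted p = 0.0529, 0.00805 with the block).

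The citric acid cycle and pyruvate entry, which supply NADH and succinate, held 1 called gene of 26, and it was lower, against 2.29% of all genes called lower. IDH2, the mitochondrial NADP-linked isocitrate dehydrogenase, had 1650, 2196 and 1980 normalized counts in NT and 1240, 1313 and 1281 in OXA, without overlap (log2FC -0.60, edgeR adjusted p = 0.0355). With the block 6 of the 26 (23.1%) were higher, among them IDH3A, IDH3B and PDHB, and 2 (7.69%) were lower, IDH2 and FH, against 12.1% and 10.9% of all genes. In the trend-removed fit 17 (65.4%) were higher and 5 (19.2%) lower, against 23.4% and 22.1%, and the median was 0.17, where it was 0.12 without the block.

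Of 20 genes of mitochondrial DNA upkeep, transcription and RNA handling, 0 were called by edgeR without the block (4 higher and 2 lower at an unadjusted p under 0.05), and 5 (25%) were higher and 2 (10%) lower with it, against 12.1% and 10.9% of all genes. The trend-removed counts were 7 (35%) and 4 (20%), against 23.4% and 22.1%. With the block the helicase TWNK was higher at 0.34 and the nuclease MGME1 lower at -0.34. Of 13 tested nuclear regulators of mitochondrial genes, 0 were called without the block in either direction, with 1 higher and 2 lower at an unadjusted edgeR p under 0.05. With the block MYC was higher at 0.55, and GABPB1, CREB1 and YY1 were lower at -0.38, -0.31 and -0.19. That is 7.69% higher and 23.1% lower, against 12.1% and 10.9% of all genes. The trend-removed counts were 1 (7.69%) and 6 (46.2%), against 23.4% and 22.1%. The list's median of -0.07 was the one below 0 among these lists without the block, and in the trend-removed fit that of the 13 mitochondrially encoded subunits was below 0 too, at -0.06.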

How the data were processed

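RNA-seq of 3 untreated (NT) and 3 oxaliplatin-treated (OXA, 0.5 µM, 24 h) libraries of HCT116 cells was used. Per the labels, polyadenylated RNA was made into stranded libraries, and the submitters' processing notes list Trimmomatic 0.32, STAR 2.7.5b, RSEM 1.3.3 and DESeq2 2.13 with GRCh38. The annotation and strand setting of the counting are not given in the sources used here. The authors deposited, for each gene, a raw count and a normalized signal in each library. The signal, in which the factor differed between genes, was not used.

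The raw counts were filtered with filterByExpr (minimum count 10, minimum total 15), normalized by TMM and compared with edgeR's quasi-likelihood test (edgeR 4.0.16, R 4.3.3), with Benjamini-Hochberg adjustment over 13727 genes and a threshold of 0.05. Standard errors were the estimate over the square root of F. The interval of the SCO2 ratio is an exact 95% interval for counting error only, since PCR duplicates cannot be told apart. NT and OXA libraries of a shared number deviated together (correlations of 0.55, 0.54 and 0.31 over all tested genes, each above the limit of 0.1). Over the members these were 0.87, 0.85 and 0.47, but NT library 3 went with OXA library 2 at 0.48, so the third pair is not distinct there. The numbers come from the labels, which do not say what they stand for. The fit with the number as a block is given where it changes a call. Positions, lengths and GC content came from GENCODE 44. Each library's trends on GC content and length were removed through offsets (splines of 4 degrees of freedom).

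The steps were tested on simulated data. Named were the genes called, the 10 smallest block p-values with separate groups, the 5 largest changes in each direction with at least 50 normalized counts, the most and least abundant subunits per length, SCO1, SCO2, the SDH genes, paralogs and ATP5IF1, and at most 5 called genes of another list. NDUFS6, ATP5MF, UQCR10, UQCRQ, NDUFS7, NDUFB7 and NDUFB10 were added after their values were seen. The members and lists were chosen with earlier results of these data known. Alternatives were RLE, upper-quartile and library-total scaling, no filter, a filter of 50 counts in 3 libraries, DESeq2 1.42.0, limma-voom (limma 3.58.1), the block, and each library left out. Added after the data were seen were GC and length trends without a block, both libraries numbered 1 left out, and the SCO2 identifiers summed.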

Additional observations from a re-analysis of the deposited data

How the results depend on the processing

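The count of members called higher was 3 and lay between 3 and 4 with RLE, library-total or upper-quartile factors, without a filter, with a stricter filter, with DESeq2 and with limma-voom, all with 0 lower. SCO2 (ENSG00000284194) did not pass the stricter filter and had no adjusted p with DESeq2. The count was 25 with the replicate block, 36 with the replicate block and GC and length trends removed (with 3 lower), 8 with the trends removed and no block, 2 without both libraries numbered 1, and 1 to 6 when 1 library was left out, with 6 without NT library 1 and 1 without NT library 3 or any OXA library. The median log2 fold change of the members was above 0 in all of these fits, at 0.097 with the replicate block and the trends removed, 0.093 with the trends removed alone, and 0.115 to 0.170 with 1 library left out. The cause of these moves was not tested. Of all genes, 2.78% were called higher without a block, 12.1% with it and 23.4% with the block and the trends removed. With the trends removed alone this share was 11.3%, and without NT library 1 it was 4.49%. For the other fits the share of all genes was not counted, so their counts are not set against all genes. Leaving out the row of SCO2 (ENSG00000284194), the count called higher was 2 without a block and 24 with the replicate block. It was then 35 with the block and the trends removed, and 7 with the trends removed alone.

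Signs changed for genes without a call in the fit without a block. With the replicate block and the trends removed, and with the trends removed alone, ATP5MC1 was -0.026 and -0.037, ATP5MC2 -0.197 and -0.195, COX6B1 -0.055 and -0.058, UQCRH -0.056 and -0.057, and NDUFAF6 0.014 and 0.013. ATP5MC2 was -0.011 with library totals and -0.011 with upper-quartile factors. Without both libraries numbered 1, ATP5MC2 was -0.013, COX6B2 -0.141 and NDUFAF6 0.050, and NDUFAF6 was 0.0015 with limma-voom. With 1 library left out, the ranges were -0.183 to 0.738 for ATP5F1D, -0.062 to 0.071 for ATP5MC2, -0.0078 to 0.117 for ATP5MC3, -0.122 to 0.394 for COX6B2, -0.094 to 0.099 for NDUFAF6, -0.176 to 0.764 for SCO2 (ENSG00000130489), -0.093 to 0.156 for SDHC, -0.183 to 0.021 for SDHD and -0.041 to 0.107 for UQCRH. With 3 libraries a group, even changes several times a gene's standard error could miss the threshold. NDUFB9 did so at 0.36 with an SE of 0.082 (edgeR adjusted p = 0.0519, no block). The isoforms at 0 counts allow no fold.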

Other observations

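Rows that share sequence with other genes were read apart. NDUFC2-KCTD14, a read-through of the complex I gene NDUFC2 into KCTD14, had 27.5, 108 and 126 normalized counts in NT and 22.7, 106 and 61.3 in OXA, and had the lowest log2FC of the members, at -0.46 (SE 0.64, edgeR adjusted p = 0.731). NDUFC2 itself had a log2FC of 0.07 (edgeR adjusted p = 0.813). ATP5MF-PTCD1, the read-through of ATP5MF, had 0.23 (edgeR adjusted p = 0.559). UQCRHL, an intronless relative of UQCRH, had 294 to 352 normalized counts in NT and 318 to 329 in OXA (log2FC 0.04, edgeR adjusted p = 0.900). How reads were divided within these sets is not given in the sources used here, so their values are uncertain.

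NDUFAF6, an assembly factor of complex I, had a log2FC of 0.00 (edgeR adjusted p = 0.991), while genes that overlap its long span moved: TP53INP1, on the other strand, had 1.601 (edgeR adjusted p = 0.00167) and CCNE2, also on the other strand, had -1.18 (edgeR adjusted p = 0.00615). NDUFAF7 shares 2902 bases with PRKD3 on the other strand, and its log2FC was -0.08 (edgeR adjusted p = 0.805).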
